A study of Homo sapiens with 8 samples.

Results

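The glycine cleavage and cytosolic folate enzymes were read out as 8 genes chosen by name, of 16040 genes in the SOX4 knockout table and 14955 in the siRNA table. AMT, GLDC, GCSH and FTCD break down glycine and histidine. SLC19A1, FPGS, GGH and MTR take up folate, hold it in the cell, release it and use it. All 8 genes had enough counts to be tested in both tables, so none was lost to the filter on low counts.

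RNA was sequenced from Hep3B, a human hepatocellular carcinoma line, in 8 libraries, 2 for each of 4 conditions. Hep3B cells of wild-type genotype, labelled Hep3B, were compared with Hep3B cells labelled SOX4-/-, and the study describes 2 SOX4 knockout lines made with CRISPR/Cas9. Its methods state puromycin in the medium of the SOX4-/- cells and do not state it for Hep3B. Genotype and puromycin therefore cannot be told apart between these groups. Hep3B cells given a scramble siRNA, labelled control si, were compared with Hep3B cells given STAT6 siRNA, labelled STAT6 si. The comparisons ask how loss of either transcription factor moves the transcripts of folate metabolism. The study's methods name both lines, #1 and #2, for these data, while the labels do not say which library is which line. The spread between the SOX4-/- libraries may therefore be that between knockout lines. For the other conditions nothing says that libraries came from separate cultures, so p-values there measure the spread between libraries, which may be technical.

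In liver mitochondria the glycine cleavage system splits glycine into carbon dioxide, ammonia and a one-carbon unit that is handed to tetrahydrofolate, the carrier of one-carbon groups. GLDC (P protein) removes the carboxyl group, GCSH (H protein) carries the remaining aminomethyl group on a lipoyl arm, and AMT (T protein) transfers the one-carbon unit to tetrahydrofolate. FTCD, an enzyme of the last steps of histidine breakdown, hands the formimino group derived from histidine to tetrahydrofolate in the cytosol and is abundant in hepatocytes. Reduced folates enter cells through the carrier SLC19A1, FPGS adds the glutamate tail that keeps folate inside, GGH in the lysosome removes that tail, and MTR, methionine synthase, uses methyl-folate to remake methionine from homocysteine.

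AMT and FTCD are the genes that passed the test in the knockout comparison, and the DNA just before their RefSeq starts is shown for that reason. The SOX4 motif was searched on both strands in the 250 bases before each RefSeq start (GRCh38.p14) in 8 spellings, namely AACAAAG and AACAATG, then with T for the second letter ATCAAAG and also ATCAATG, with T for the first letter TACAAAG and also TACAATG, and with T for both TTCAAAG and also TTCAATG, the STAT6 motif as TTCNNNNGAA and the TATA box as TATAAA. These spellings occur in 17.9%, 5.38% and 10.7% of all 35116 RefSeq windows of that length. The outer 30 bases of the AMT window (chr3:49422694-49422723, minus strand) and the whole FTCD window (chr21:46155580-46155829, minus strand) read as follows, 5′ to 3′, with a SOX4 motif match in capitals in AMT and the TATA box in capitals in FTCD.
AMT: gcccctagCTTTGTTctgggcagcccaatc
FTCD: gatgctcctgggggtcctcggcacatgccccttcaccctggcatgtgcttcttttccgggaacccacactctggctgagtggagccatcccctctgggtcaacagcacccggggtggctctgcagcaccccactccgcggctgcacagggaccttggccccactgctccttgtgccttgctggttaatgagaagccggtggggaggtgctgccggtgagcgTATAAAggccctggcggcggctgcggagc
The AMT match, CTTTGTT, is AACAAAG on the opposite strand and ends 236 bases before the RefSeq start, but 31 bases before the start of the AMT transcripts in the deposited tables. Of the 250 bases of that AMT window 205 lie within the span of the counted transcripts, and the printed bases lie within the AMT gene span of GENCODE release 29. FTCD held neither a SOX4 nor a STAT6 spelling in its window, and its TATA box ends 24 bases before the RefSeq start and 36 bases before the start of the deposited transcript. The windows of GLDC, GCSH, FPGS and MTR held none of the 3 motifs. SLC19A1 held 2 SOX4 spellings, CTTTGTT and CTTTGAA, in the window of its most upstream start and none in the other 3. That start lies beyond every SLC19A1 transcript of the deposited tables and beyond the GENCODE span of the gene, and the window at the start of the counted transcripts held none. These are letters in a window, and no binding was measured.

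Transcript positions in the deposited tables are on hg38. AMT lay on chromosome 3 from 49416778 to 49422678, GLDC on chromosome 9 from 6532464 to 6645692, GCSH on chromosome 16 from 81081947 to 81096375 and FTCD on chromosome 21 from 46136262 to 46155567. Of the folate genes, SLC19A1 lay on chromosome 21 from 45514715 to 45542471, FPGS on chromosome 9 from 127802858 to 127814081, GGH on chromosome 8 from 63015080 to 63039051 and MTR on chromosome 1 from 236795281 to 236903981. In GENCODE release 29 the exons of SLC19A1 share 14% of their bases with COL18A1 on the opposite strand, and those of FTCD share 3.75% with FTCD-AS1. These shares and those below are of all annotated GENCODE exon bases, 9998 for SLC19A1 and 5746 for AMT, not of the counted transcripts. The GENCODE span of SLC19A1 begins at 45493572, outside the counted span. Whether the shared bases lie within the counted transcripts was not examined. The library kit keeps strand, but whether the counting used it is not stated, so reads in any such bases cannot be assigned. AMT shares 63.1% of its exon bases with another annotated gene, AC104452.1, on the same strand, which has no row of its own in the tables. GCSH shares 12% and 11.7% of its exon bases with AC092718.3 and AC092718.8 on the same strand, which have no rows either. GCSH has 5 processed pseudogenes, and 1 of them, GCSHP3, has a row of its own, so the split of GCSH reads is uncertain. GLDC has a transcribed processed pseudogene, GLDCP1, without a row, so the assignment of GLDC reads is uncertain too.

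Library totals ran from 16266282 to 25353113 expected counts. SOX4 itself stood at 729 and 249 CPM (counts scaled to library size by TMM over all 8 libraries) in Hep3B and at 261 and 271 CPM in the SOX4-/- libraries, so its transcript gives no check of the knockout label. STAT6 stood at 46.2 and 33.9 CPM in control si and at 11.5 and 6.49 CPM in STAT6 si, and at 29.1 and 12.4 CPM in Hep3B and 2.42 and 1.98 CPM in SOX4-/-. All 8 hepatocyte markers were at 1 CPM or more in every library. Their summed level was 10300 to 11574 CPM in Hep3B, 23945 to 39222 CPM in SOX4-/- and 13500 to 19828 CPM in the siRNA libraries. Of 6 fibroblast markers 3 had rows in the knockout table and summed to 4.04 to 6.98 CPM in Hep3B and 69.7 to 88.6 CPM in SOX4-/-, mostly through LUM. Of 4 leukocyte markers 3 had rows there and summed to 32.2 to 81.6 CPM in Hep3B and 163 to 392 CPM in SOX4-/-, with PTPRC below 0.2 CPM in all 4 libraries. The cholangiocyte markers, 4 of 4 present, summed to 645 to 882 CPM in Hep3B, 911 to 1087 CPM in SOX4-/- and 1099.7 to 1962 CPM in the siRNA libraries, and the 1 of 4 endothelial markers with a row stayed below 0.7 CPM.

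The libraries labelled SOX4-/- had higher transcript levels of AMT and FTCD, 4.13-fold and 5.82-fold over Hep3B, while GLDC and GCSH, the partners of AMT, did not pass the test. None of the 4 folate genes passed it, although FPGS and MTR were higher in both SOX4-/- libraries. A gene was called when its p, adjusted by Benjamini-Hochberg over the 14415 genes tested with edgeR's quasi-likelihood test, fell below 0.05. By that rule 2 of the 8 genes were called, both higher and both among the 4 breakdown enzymes, against 5.89% of all genes tested, of which 4.5% were higher and 1.39% lower. At an unadjusted p below 0.05 were 4 of the 8 genes, against 26% of all genes tested. The median log2 fold change was 1.24 over the breakdown enzymes and 0.45 over the folate genes, and 0.01 over all genes tested. In the comparisons that follow, CPM were scaled with the TMM factors of the 4 libraries of one table. Factors over all 8 libraries apply to the plot of CPM by library, marker CPM, gene group averages and the order of the 4 conditions. The same library therefore has a different CPM in those. In bulk RNA a change in the share of a cell state and a change in RNA per cell cannot be told apart.

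**Figure D1:**
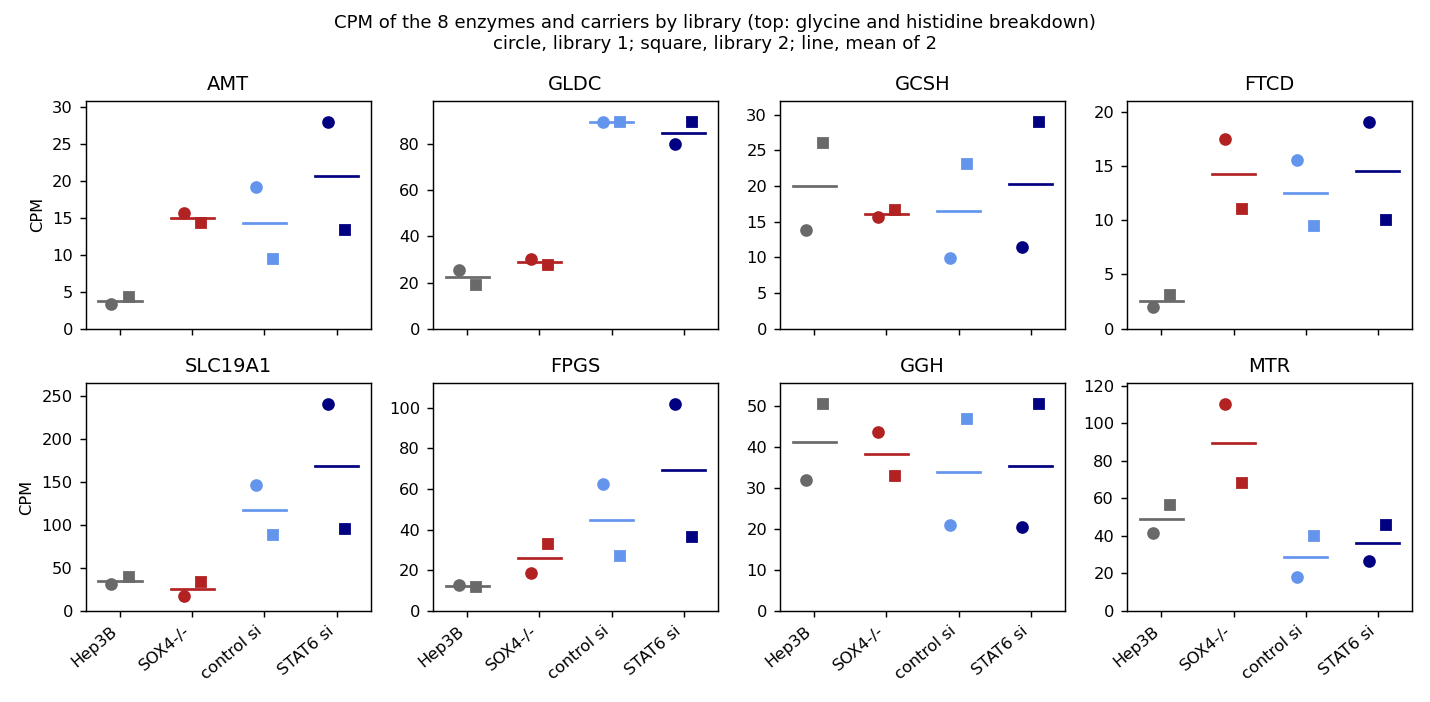
CPM (TMM factors over all 8 libraries) of the 8 genes in each library, with the 4 conditions on the horizontal axis, a circle for library 1, a square for library 2 and a line at their mean; each panel has its own vertical axis from 0. AMT, GLDC, FTCD and FPGS are lowest in both Hep3B libraries, and GCSH and GGH show no separation of the conditions.

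AMT, the aminomethyltransferase of glycine cleavage, stood at 3.63 and 4.59 CPM in the Hep3B libraries and at 17.987 and 15.999 CPM in the SOX4-/- libraries, from 64, 87, 475 and 291 expected counts. Both SOX4-/- libraries lay well above both Hep3B libraries. The log2 fold change was 2.05 ± 0.45 (SE, 95% confidence interval 1.01 to 3.08, edgeR adjusted p = 0.0428, n = 2 against 2). The transcript NM_000481 held 4.76 and 48.4 expected counts in Hep3B and 317 and 211 in SOX4-/-. In Hep3B library 1 it held 7.41% of the gene's counts and in Hep3B library 2 55.9%, so the estimate for single transcripts was unsteady at these low counts.

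FTCD, formimidoyltransferase cyclodeaminase, stood at 2.21 and 3.32 CPM in Hep3B and at 19.99 and 12.3 CPM in SOX4-/-, from 39, 63, 528 and 224 expected counts. Both SOX4-/- libraries again lay above both Hep3B libraries, though they differed from each other more than for AMT. Its log2 fold change was 2.54 ± 0.52 (SE, 95% confidence interval 1.34 to 3.74, edgeR adjusted p = 0.0370, n = 2 against 2). One transcript, NM_206965.1, held 90.9% to 95.4% of the FTCD counts in the 4 libraries of this table and 88.8% to 96.8% in the siRNA libraries, so the rise was carried by the same transcript in both knockout libraries.

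Both calls were lost when offsets for GC content and transcript length were added (edgeR adjusted p = 0.0685 for AMT at a log2 fold change of 1.66, and 0.0798 for FTCD at 1.84), and when either SOX4-/- library was left out (AMT 0.236 and 0.240, FTCD 0.236 and 0.161). The AMT call was also lost in a fit of all 8 libraries (adjusted p = 0.0906), where FTCD stayed called (0.0428). The summed hepatocyte, cholangiocyte, fibroblast and leukocyte markers given above were higher in both SOX4-/- libraries too, as were 30.6% of the single genes tested. Within those lists AFP, SOX9, EPCAM and PTPRC did not lie higher in both. AFP stood at 136 and 28.7 CPM in Hep3B and at 65.8 and 27.8 CPM in SOX4-/-. EPCAM stood at 360 and 375 CPM in Hep3B and at 362 and 294 CPM in SOX4-/-. The part of the marker sums in the AMT and FTCD values was not tested.

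GLDC, the decarboxylating subunit, stood at 28.0 and 20.3 CPM in Hep3B and at 34.4 and 30.8 CPM in SOX4-/-. The libraries did not overlap, but the log2 fold change was 0.43 ± 0.36 with a 95% confidence interval of -0.41 to 1.28 (edgeR adjusted p = 0.485). GCSH, the lipoyl carrier protein, stood at 15.2 and 27.8 CPM in Hep3B and at 17.8 and 18.5 CPM in SOX4-/-. Both SOX4-/- libraries fell between the Hep3B libraries, and the log2 fold change was -0.24 ± 0.42 (95% confidence interval -1.22 to 0.73, edgeR adjusted p = 0.753). The intervals still allow a rise of more than 1 on the log2 scale for GLDC and a fall of more than 1 for GCSH. DLD, the shared L protein that reoxidises the lipoyl arm, stood at 48.3 and 49.8 CPM in Hep3B and 70.4 and 67.7 CPM in SOX4-/- with a log2 fold change of 0.49 (edgeR adjusted p = 0.378).

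SLC19A1, the reduced folate carrier, stood at 33.9 and 41.9 CPM in Hep3B and at 19.3 and 37.4 CPM in SOX4-/-. The second SOX4-/- library lay between the Hep3B libraries and the first below both, and the log2 fold change was -0.42 ± 0.42 (edgeR adjusted p = 0.565). With the GC content and length offsets it was -1.15 (adjusted p = 0.134). FPGS, folylpolyglutamate synthase, stood at 14.1 and 12.3 CPM in Hep3B and at 21.5 and 36.6 CPM in SOX4-/-. Its libraries did not overlap, and the log2 fold change of 1.13 ± 0.41 had an unadjusted p of 0.0263 but an edgeR adjusted p of 0.140. With the offsets the FPGS value was 0.47 (adjusted p = 0.461).

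GGH, the hydrolase that removes the glutamate tail FPGS adds, stood at 35.1 and 53.7 CPM in Hep3B and at 49.8 and 36.6 CPM in SOX4-/-. The groups overlapped fully, and the log2 fold change was -0.04 ± 0.38 (95% confidence interval -0.93 to 0.85, edgeR adjusted p = 0.960). MTR stood at 45.8 and 59.9 CPM in Hep3B and at 126 and 75.9 CPM in SOX4-/-. Its 2 knockout libraries lay far apart, with differences from the Hep3B library of the same number of 1.46 and 0.34 on the log2 scale. The MTR log2 fold change was 0.94 ± 0.39 (unadjusted p = 0.0434, edgeR adjusted p = 0.180). The 3 annotated MTR transcripts share 1 start and end in the tables, and NM_000254 held 49.1% to 54.0% of the MTR counts in the 4 libraries.

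Counting overlap alone, 5 of the 8 genes (AMT, GLDC, FTCD, FPGS and MTR) had both SOX4-/- libraries above both Hep3B libraries. Of all genes tested 58% had groups that did not overlap and 30.6% lay higher in SOX4-/-. Averaged within each library, the 4 breakdown enzymes lay 1.24 and 1.03 above their Hep3B mean on the log2 scale in SOX4-/- libraries 1 and 2, and the 4 folate genes 0.22 and 0.39 above theirs. In these means the breakdown enzymes therefore exceeded the folate genes by 1.02 and 0.64, a gap in which AMT and FTCD have the largest changes and which is given without a test. The edgeR log2 fold change of GLDC, 0.43 ± 0.36, was close to the folate genes' median of 0.45, and that of GCSH, -0.24 ± 0.42, lay below it.

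**Figure D2:**
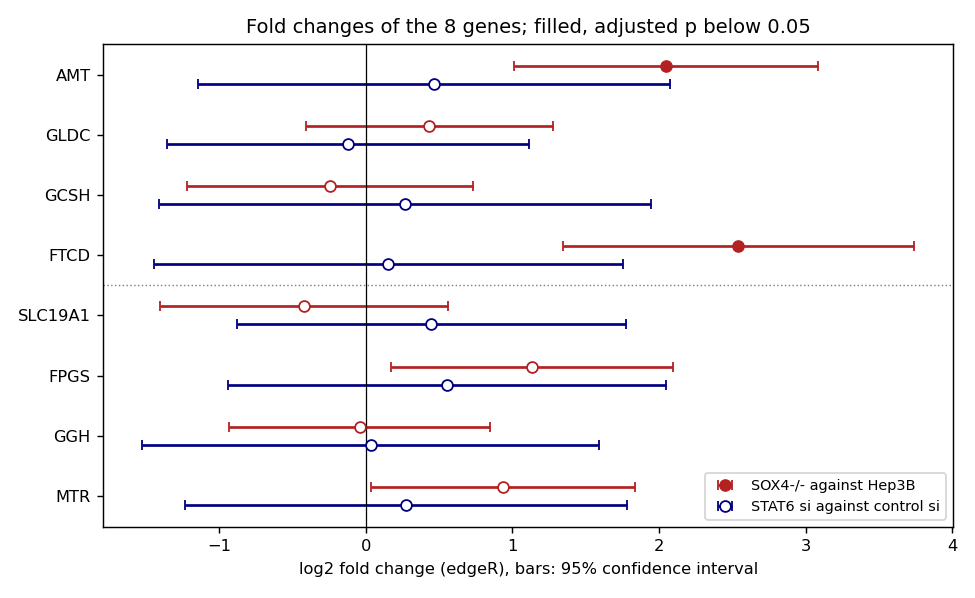
Log2 fold changes of the 8 genes from edgeR for SOX4-/- against Hep3B (red) and STAT6 si against control si (blue), with bars for the 95% confidence interval and filled points for an adjusted p below 0.05; the dotted line divides breakdown enzymes (top) from folate genes. The intervals of AMT and FTCD in the knockout comparison begin at 1.01 and 1.34, and every siRNA interval spans 0.

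STAT6 siRNA moved none of the 8 genes past the test. STAT6, the silenced gene itself, did not pass it either, at a log2 fold change of -2.22 ± 0.72 (edgeR unadjusted p = 0.00834). The rule called 0 of 13554 genes in this comparison (0% of all tested), 14 genes (0.103%) had an unadjusted p below 0.05 in edgeR, of which 0 were among the 8, and DESeq2 called 0 with 16 at an unadjusted p below 0.05. The 8 log2 fold changes ran from -0.12 for GLDC to 0.55 for FPGS, with a median of 0.27 against -0.03 over all genes, and 7 of 8 were above 0, of which FTCD turned below 0 with GC content and length offsets and GGH with the library number as a block. Every one of the 8 genes had overlapping libraries, whereas 8% of all genes tested did not overlap and 2.74% lay higher in STAT6 si.

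AMT stood at 17.6 and 8.80 CPM in control si and at 24.2 and 12.3 CPM in STAT6 si. The STAT6 si library was higher within each number, by 0.46 and 0.48 on the log2 scale, but the libraries numbered 1 lay higher than those numbered 2 in both conditions. The log2 fold change was 0.47 ± 0.75 (95% confidence interval -1.14 to 2.08, edgeR adjusted p = 1.00). FTCD stood at 14.3 and 8.80 CPM in control si and at 16.5 and 9.28 CPM in STAT6 si, with a log2 fold change of 0.15 ± 0.74 (95% confidence interval -1.44 to 1.75). GLDC stood at 82.4 and 82.8 CPM in control si and 68.9 and 82.8 CPM in STAT6 si. GCSH stood at 9.10 and 21.3 CPM in control si and at 9.85 and 26.8 CPM in STAT6 si, so the library number separated it more than the siRNA did.

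Among the folate genes SLC19A1 stood at 134 and 81.8 CPM in control si and 207 and 87.8 CPM in STAT6 si. FPGS stood at 57.4 and 25.2 CPM against 87.7 and 33.6 CPM, again with library 1 above library 2 in both conditions. GGH, at 19.3 and 43.4 CPM against 17.6 and 46.6 CPM, and MTR, at 16.5 and 37.1 CPM against 22.7 and 42.2 CPM, ran the other way, with library 1 lower in both. GCSH, GGH and MTR, which are lower in the libraries numbered 1, have the lowest GC contents of the 8 genes (40.9%, 47.0% and 44.6%). The widest 95% confidence interval was that of GCSH, -1.41 to 1.94, which includes a change of 1 on the log2 scale in either direction.

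The difference between the 2 effects was tested in a fit of all 8 libraries, since a call in one comparison and none in the other does not show that they differ. It was called for 0 of the 8 genes and for 0.0683% of 14632 genes, and 1 of the 8 had an unadjusted p below 0.05, against 6.31% of all genes tested. FTCD came nearest, with a difference of 2.26 ± 0.85 on the log2 scale (95% confidence interval 0.43 to 4.08, unadjusted p = 0.0190, edgeR adjusted p = 0.562). For AMT the difference was 1.45 ± 0.84 (95% confidence interval -0.35 to 3.26, edgeR adjusted p = 0.925). For SLC19A1 the difference was -0.99 ± 0.82 (edgeR adjusted p = 1.00), and it ran from -1.57 to -0.12 when single libraries were left out. No difference between the knockout and the siRNA effect was thus shown for any of the 8 genes.

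**Figure D3:**
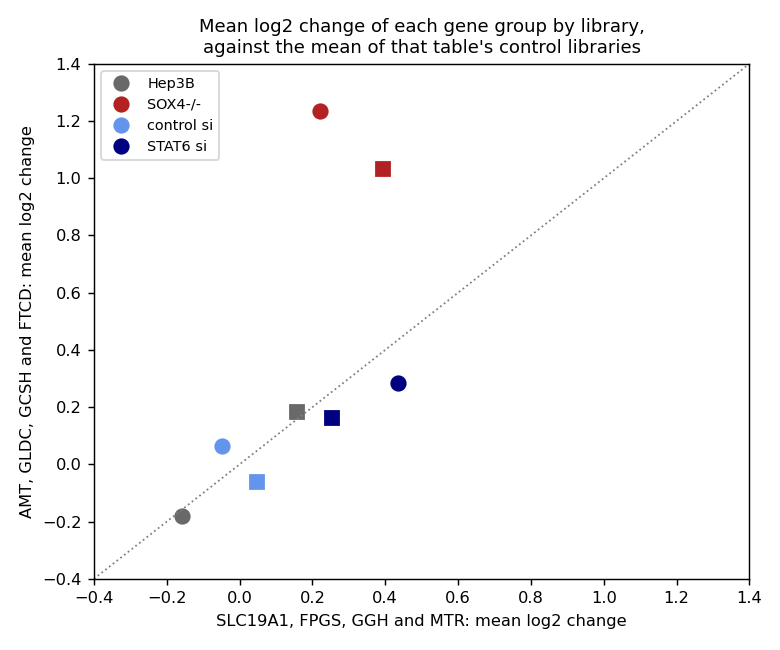
Mean log2 change of the 4 breakdown enzymes (vertical) against that of the 4 folate genes (horizontal) in each library, each against the mean of its own table's control libraries; a circle is library 1, a square library 2 and the dotted line marks equal change. Both SOX4-/- libraries lie above the line, at differences of 1.02 and 0.64, and both STAT6 si libraries lie just under it, at -0.15 and -0.09.

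The control groups of the tables are set side by side here as a description. With common scaling, the mean of control si over the mean of Hep3B was 3.76-fold for AMT, 4.02-fold for GLDC, 4.88-fold for FTCD, 3.34-fold for SLC19A1 and 3.67-fold for FPGS, but 0.825-fold for GCSH, 0.824-fold for GGH and 0.592-fold for MTR. The 5 genes that were higher in control si have GC contents of 51.7% to 65.4%, and the 3 that were lower 40.9% to 47.0%. Over 13018 genes of both tables the same log2 difference had a Spearman correlation with GC content of 0.67, as a description over genes that share these libraries. Its median was -1.05 for 4388 genes under 45% GC and 0.70 for 2219 genes at 60% GC or more. Transfection, table and library preparation cannot be told apart between the 2 control groups, and no test was made between tables.

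**Figure D4:**
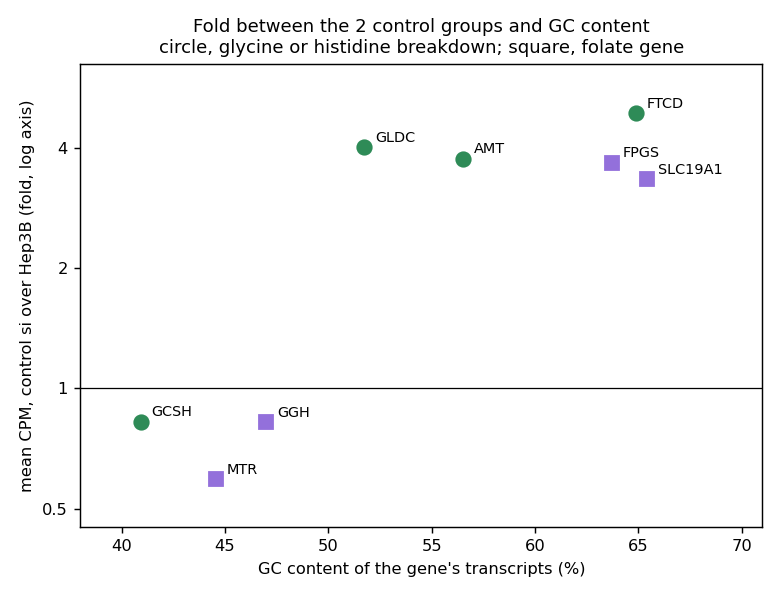
Mean CPM in control si divided by mean CPM in Hep3B (vertical, log axis) against the GC content of each gene's transcripts (horizontal) for the 8 genes; circles are breakdown enzymes and squares folate genes. The 3 genes under 50% GC lie below 1 and the other 5 lie between 3.34 and 4.88.

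The order of the conditions, in CPM scaled over all 8 libraries, differed from gene to gene. AMT was highest in STAT6 si (20.7 ± 10.4 CPM, SD, n = 2), then SOX4-/- (15.1 ± 0.953), control si (14.3 ± 6.82) and Hep3B (3.81 ± 0.702). The first 3 overlapped with their neighbours, and Hep3B lay below all of them. FTCD had the same order, at 14.6 ± 6.40, 14.3 ± 4.54, 12.5 ± 4.29 and 2.57 ± 0.777 CPM, again with Hep3B as the only condition that stood apart. GLDC fell into 2 tiers, with control si (89.6 ± 0.185) and STAT6 si (84.9 ± 6.87) far above SOX4-/- (28.9 ± 1.66) and Hep3B (22.3 ± 4.65).

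GCSH ran from 20.2 ± 12.5 CPM in STAT6 si to 16.1 ± 0.714 CPM in SOX4-/-, and GGH from 41.2 ± 13.0 CPM in Hep3B to 33.9 ± 18.3 CPM in control si, and in both genes every neighbour in the order overlapped. SLC19A1 was higher in STAT6 si (168 ± 103) and control si (117 ± 41.0) than in Hep3B (35.1 ± 5.90) and SOX4-/- (25.3 ± 11.8), with no overlap between those pairs and overlap within them. FPGS stood at 69.2 ± 46.3, 44.9 ± 24.9, 25.8 ± 9.97 and 12.2 ± 0.961 CPM in STAT6 si, control si, SOX4-/- and Hep3B, and Hep3B alone did not overlap its neighbour. MTR was highest in SOX4-/- (89.4 ± 29.8), above and apart from Hep3B (49.0 ± 10.2). Hep3B overlapped STAT6 si (36.1 ± 13.7), and STAT6 si overlapped control si (29.005 ± 15.6). Hep3B and control si did not overlap, with Hep3B higher.

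Between genes, levels were compared per length as TPM, a share of transcripts scaled to a common total, computed from the mean length of each gene's transcripts. GGH was the most abundant of the 8 genes in Hep3B (67.4 TPM) and SOX4-/- (65.2 TPM), and SLC19A1 in control si (123 TPM) and STAT6 si (145 TPM). FTCD was lowest in Hep3B at 3.53 TPM, with AMT next at 4.96 TPM. In SOX4-/- both stood near 20 TPM, FTCD at 20.6 TPM and AMT at 20.4 TPM, level with GLDC at 20.2 TPM. MTR was lowest in both siRNA conditions, at 7.24 and 8.07 TPM. GCSH, at means of 28.0 to 40.9 TPM, was above its partner AMT in the mean of every condition, but below it in control si library 1 (13.6 against 16.8 TPM) and STAT6 si library 1 (12.4 against 19.5 TPM).

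Of the neighbouring pathways, 3 lists held 1 gene each called higher in SOX4-/-, which was AMDHD1 of 2 tested for histidine breakdown, SARDH of 4 for hepatic one-carbon oxidation and BAAT of 4 for glycine use in hepatocytes. Calls in the neighbouring lists come from the main fit only. They were not read out with the offsets or with single libraries left out. AMDHD1, imidazolonepropionase, acts just before FTCD in histidine breakdown and stood at 11.1 and 6.70 CPM in Hep3B and 59.9 and 30.9 CPM in SOX4-/- (log2 fold change 2.35, edgeR adjusted p = 0.0372). HAL, histidine ammonia-lyase, the first enzyme of that path, stood at 32.3 and 2.37 CPM in Hep3B and 53.1 and 64.3 CPM in SOX4-/- (log2 fold change 1.76, edgeR adjusted p = 0.276). The Hep3B libraries lay far apart in HAL. UROC1, the enzyme between HAL and AMDHD1, was not among the genes tested.

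SARDH, sarcosine dehydrogenase, which makes glycine and feeds one-carbon units to folate, stood at 5.62 and 3.06 CPM in Hep3B and 25.5 and 15.9 CPM in SOX4-/- (log2 fold change 2.26, edgeR adjusted p = 0.0468). BAAT, which joins bile acids to glycine or taurine, stood at 22.9 and 17.2 CPM in Hep3B and 231 and 134 CPM in SOX4-/- (log2 fold change 3.19, edgeR adjusted p = 0.0152). The uncalled genes of the one-carbon oxidation list had log2 fold changes of 1.27 (DMGDH), 0.78 (PIPOX) and 1.99 (BHMT), with edgeR adjusted p from 0.140 to 0.558. Those of the glycine use list had 2.59 (AGXT), 0.39 (GATM) and 0.43 (ALAS1), with edgeR adjusted p from 0.0780 to 0.825. MTHFD2, the mitochondrial methylene-folate dehydrogenase, stood at 728 and 506 CPM in Hep3B and 114 and 153 CPM in SOX4-/- (log2 fold change -2.21, edgeR adjusted p = 0.0319). It was the only called gene of 5 tested mitochondrial folate enzymes, whose median log2 fold change was -1.40. Of the 9 cytosolic enzymes that reduce and interconvert folate 0 were called in edgeR, 0 had an unadjusted p below 0.05, and their median was 0.28.

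The other folate carriers did not pass the test. SLC46A1, the proton-coupled folate transporter, stood at 89.3 and 50.5 CPM in Hep3B and 253 and 141 CPM in SOX4-/- (log2 fold change 1.497, edgeR adjusted p = 0.0895). SLC25A32, the mitochondrial folate carrier, stood at 45.9 and 42.1 CPM in Hep3B and 14.9 and 22.7 CPM in SOX4-/- (log2 fold change -1.23, edgeR adjusted p = 0.0959). No gene of the lipoylation list (0 of 4) or of the methionine synthase partners and cobalamin handling list (0 of 7) was called. Over all 8 lists, 37 genes were tested in the knockout comparison, 3 were called higher and 1 lower, against 5.89% of all genes tested, and 13 had an unadjusted p below 0.05, against 26% of all genes. In the siRNA comparison 0 of 35 were called, with 0 at an unadjusted p below 0.05 in edgeR.

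**Figure D5:**
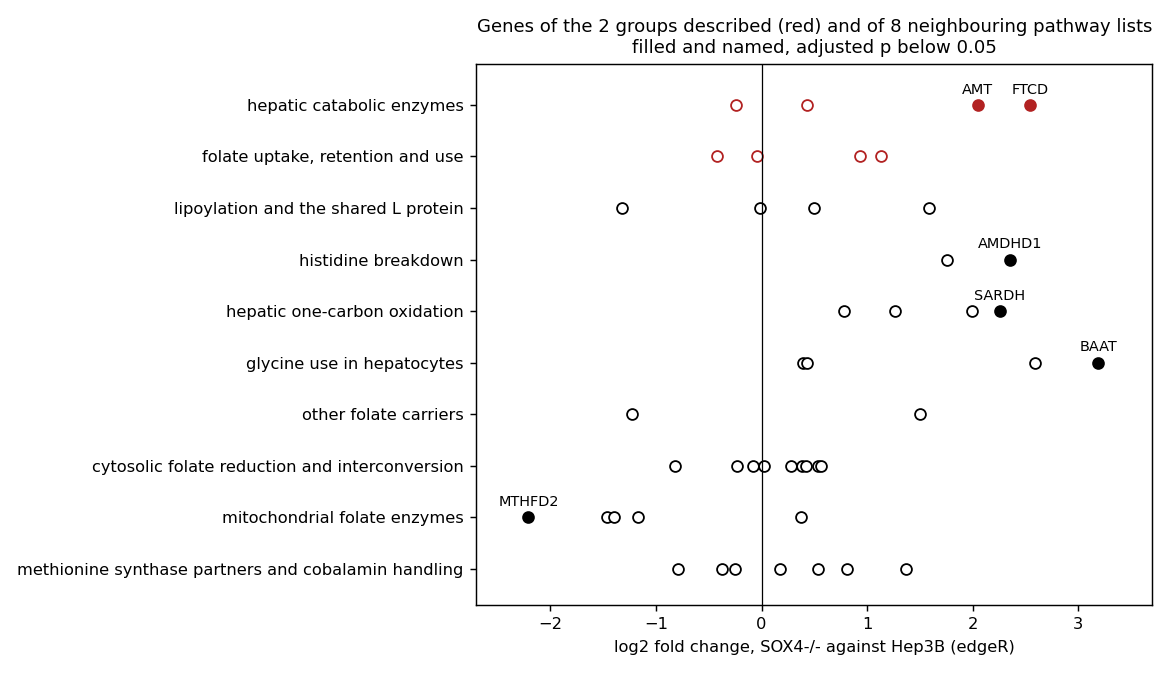
Log2 fold changes in SOX4-/- against Hep3B (horizontal) of the 4 breakdown enzymes and 4 folate genes (red) and of the 37 tested genes of 8 neighbouring lists (black), 1 row a list and 1 point a gene; filled and named points have an edgeR adjusted p below 0.05. AMT, FTCD, AMDHD1, SARDH and BAAT lie on the right and MTHFD2 on the left.

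The genes whose log2 CPM followed AMT most closely over the 8 libraries, in CPM scaled over all 8 libraries and out of 10993 genes averaging 100 counts or more a library, were SELENBP1 and LHPP, each with a Pearson correlation of 0.994. SELENBP1, a selenium-binding protein, stood at 6.21 and 7.37 CPM in Hep3B, 35.8 and 31.3 CPM in SOX4-/-, 36.6 and 16.5 CPM in control si and 58.1 and 24.8 CPM in STAT6 si. The closest to FTCD were ABCC6P2 and CRYL1, each at 0.983, of which ABCC6P2 is a pseudogene of ABCC6, and how reads were split between them was not examined. These correlations are over 8 libraries that share the difference between tables and the difference between library numbers.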

How the data were processed

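Illumina stranded mRNA libraries were made from TRIzol RNA. The authors deposited 2 tables of expected counts, that is, estimated counts per RefSeq transcript that need not be whole and are not normalized. STAR, Partek and hg38 are named in the submitters' processing notes, without versions, and the counting settings are not given in the sources used here. Transcripts summing to under 10 over a table are not in it, and 0 columns were left without a library.

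Expected counts were summed per gene and rounded. The tables were fitted separately with edgeR 4.0.16 under R 4.3.3, using TMM factors, filterByExpr, estimateDisp, and glmQLFit and glmQLFTest at their defaults. A call was a p-value below 0.05 after Benjamini-Hochberg adjustment over every gene tested. CPM used TMM factors of the own table in comparisons and of all 8 libraries across conditions, for markers and for gene group averages within a library. Log2 values of single libraries used a prior count of 2. The difference of the effects was a contrast in 1 fit of all 8 libraries. GC content and lengths came from GENCODE release 29 transcripts, for 15915 of 16167 gene names (98.4%). The offsets were smooths from mgcv 1.9.3. Alternatives also used DESeq2 1.42.0. The steps were tested on simulated data, and figures were drawn with matplotlib 3.10.9. RefSeq promoter windows were on GRCh38.p14, and MTR and FTCD have the same start and end in GENCODE release 29 as in the tables. Promoter windows were searched for 7 of the 8 genes.

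The 8 genes, the pathway and marker lists and the tests were chosen with earlier results of these data known. Named genes were the 8, list genes past the threshold with examples of each list, the 2 genes most correlated with each called gene, SOX4 and STAT6. HAL, DLD, SLC46A1 and SLC25A32 are list examples, and LUM, PTPRC, AFP, SOX9 and EPCAM were named after their values were seen.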

Additional observations from a re-analysis of the deposited data

How the results depend on the processing

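The limits are 2 libraries a group and, in the siRNA table, a difference between libraries 1 and 2 that follows GC content (Spearman correlation over genes -0.756 in control si and -0.820 in STAT6 si, against -0.089 in Hep3B and 0.287 in SOX4-/-). In the knockout comparison the 849 called genes became 2160 with DESeq2, 518 with at least 10 counts in every library and 112 with GC content and length offsets together with the replicate block, and 21 to 2298 when single libraries were left out (21 without SOX4-/- replicate 2, 73 without SOX4-/- replicate 1, 1322 without Hep3B replicate 2 and 2298 without Hep3B replicate 1), in which case the lone library is assumed to vary like the other groups. The 2 called genes of the 8 became 0 with the GC content and length offsets, 0 with these offsets and the block, 1 in the fit of all 8 libraries (FTCD), and 0 to 2 when single libraries were left out, with 0 without either SOX4-/- replicate. Both genes stayed called with the other scalings, filters and fits run and with DESeq2. With GC content and length offsets and the replicate block AMT was at 1.67 (edgeR adjusted p = 0.108) and FTCD at 1.83 (0.127), and with the block alone both stayed called (0.0478 and 0.0377). In the siRNA comparison 0 genes became 62 with the replicate block and 347 with the block and the offsets, and 0 of the 8 genes were called in every setting. MTR came nearest, with a lowest adjusted p of 0.0508 over the edgeR and DESeq2 alternatives that left out no library. Its log2 fold change ran from 0.27 to 0.46 in those. With the block GGH turned to -0.0079 in the siRNA comparison, and FTCD to -0.12 with the offsets and -0.12 with offsets and block, none of them called. The labels do not say that library numbers mark a batch, so the libraries share only a number. Deviations of same-numbered libraries correlated at 0.873 over genes in the siRNA table and at -0.085 in the knockout table.

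Leaving out single libraries, the knockout log2 fold change ran from 1.83 to 2.22 for AMT, 0.21 to 0.63 for GLDC, -0.67 to 0.25 for GCSH, 2.16 to 2.86 for FTCD, -1.01 to -0.0085 for SLC19A1, 0.67 to 1.48 for FPGS, -0.38 to 0.29 for GGH and 0.53 to 1.22 for MTR. In the siRNA comparison it ran from -0.10 to 1.12 for AMT, -0.27 to 0.0043 for GLDC, -0.63 to 1.01 for GCSH, -0.31 to 0.62 for FTCD, -0.30 to 0.93 for SLC19A1, -0.30 to 1.35 for FPGS, -0.84 to 0.74 for GGH and -0.24 to 0.98 for MTR. The difference of the effects ran from 0.87 to 2.15 for AMT, 0.25 to 0.69 for GLDC, -1.34 to 0.23 for GCSH, 1.87 to 2.85 for FTCD, -1.57 to -0.12 for SLC19A1, -0.24 to 1.44 for FPGS, -0.87 to 0.64 for GGH and -0.14 to 1.02 for MTR. Apart from the offsets and the block the cause of these moves was not tested.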
